A study of Mus musculus with 56 samples.

Results

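Matrix proteases cut the proteins that hold tissue together and that signal at the cell surface. The genes described here are the MMP, ADAM, ADAMTS and TIMP genes, taken as every symbol of the deposited expression table that begins with one of those names and a number. The rule found 79 genes of the 24034 kept in the table, namely 23 MMP, 33 ADAM, 19 ADAMTS and 4 TIMP genes. All 79 matched a protein coding gene of RefSeq.

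Bulk RNA-seq was used to compare mouse liver tumours with healthy liver, tumours with and without model antigens, and tumours titled as male with tumours that have no sex in the title. The groups were 4 lucOS male, 4 luc male, 6 lucOS and 6 luc tumours and 6 healthy livers, all C57BL/6. Every tumour is titled with MYC and nicd, the active part of a NOTCH receptor, and arose after hydrodynamic tail vein delivery, which brings plasmid DNA into some of the hepatocytes. In the titles luc stands for luciferase, and in lucOS the luciferase is fused to model peptides seen by T cells. The same delivery method is given for the healthy livers, and what they received, the ages, and the sex of the untitled groups were not given in the sources used here. Each library was of whole tissue, so that a lower level may mean fewer cells of a type or less RNA per cell, and these cannot be told apart. The titles carry different animal numbers, and p-values measure the spread between these libraries.

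The 4 families work together. MMPs (matrix metalloproteinases) are made as inactive precursors and degrade collagen, elastin, laminin and other matrix proteins, and the membrane-type MMPs do so while held on the cell surface. ADAMs are membrane proteases that release growth factors, cytokines and receptors from cells, ADAM10 and ADAM17 being the main ones, and ADAM10 makes the first ligand-dependent cut in NOTCH receptors. ADAMTS proteases are secreted and cut proteoglycans, procollagen or von Willebrand factor. TIMPs are the tissue inhibitors, of which TIMP3 is bound to the matrix and also blocks several ADAM and ADAMTS enzymes. In injured liver, activated stellate cells and macrophages are well known sources of these enzymes and of TIMPs.

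Levels are in TPM, a relative transcript abundance corrected for gene length. Of the 79 genes, 47 reached 1 TPM in at least 4 libraries and were tested, 3 reached 1 TPM in 1 to 3 libraries, 23 were above 0 but stayed under 1 TPM, and 6 were listed at 0 in every library. The untested genes were mostly ADAMs known from sperm and testis. Of the 21 ADAMs of germ cells or without a role assigned here only Adam1a was tested, and Adam26a, Adam26b, Adam29, Adam34 and Adam6a were listed at 0 throughout. Fold changes are on the log2(TPM + 1) scale, which understates changes of low genes, and a gene was called at a limma adjusted p under 0.05 over all genes tested. The 7 hepatocyte markers summed to 259 to 14138 TPM in tumours, against 103460 to 151156 TPM in healthy liver. TPM values of a library add up to a nearly fixed sum, and the median of all 15767 genes tested was 1.03 higher in tumours on the log2 scale.

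**Figure D1:**
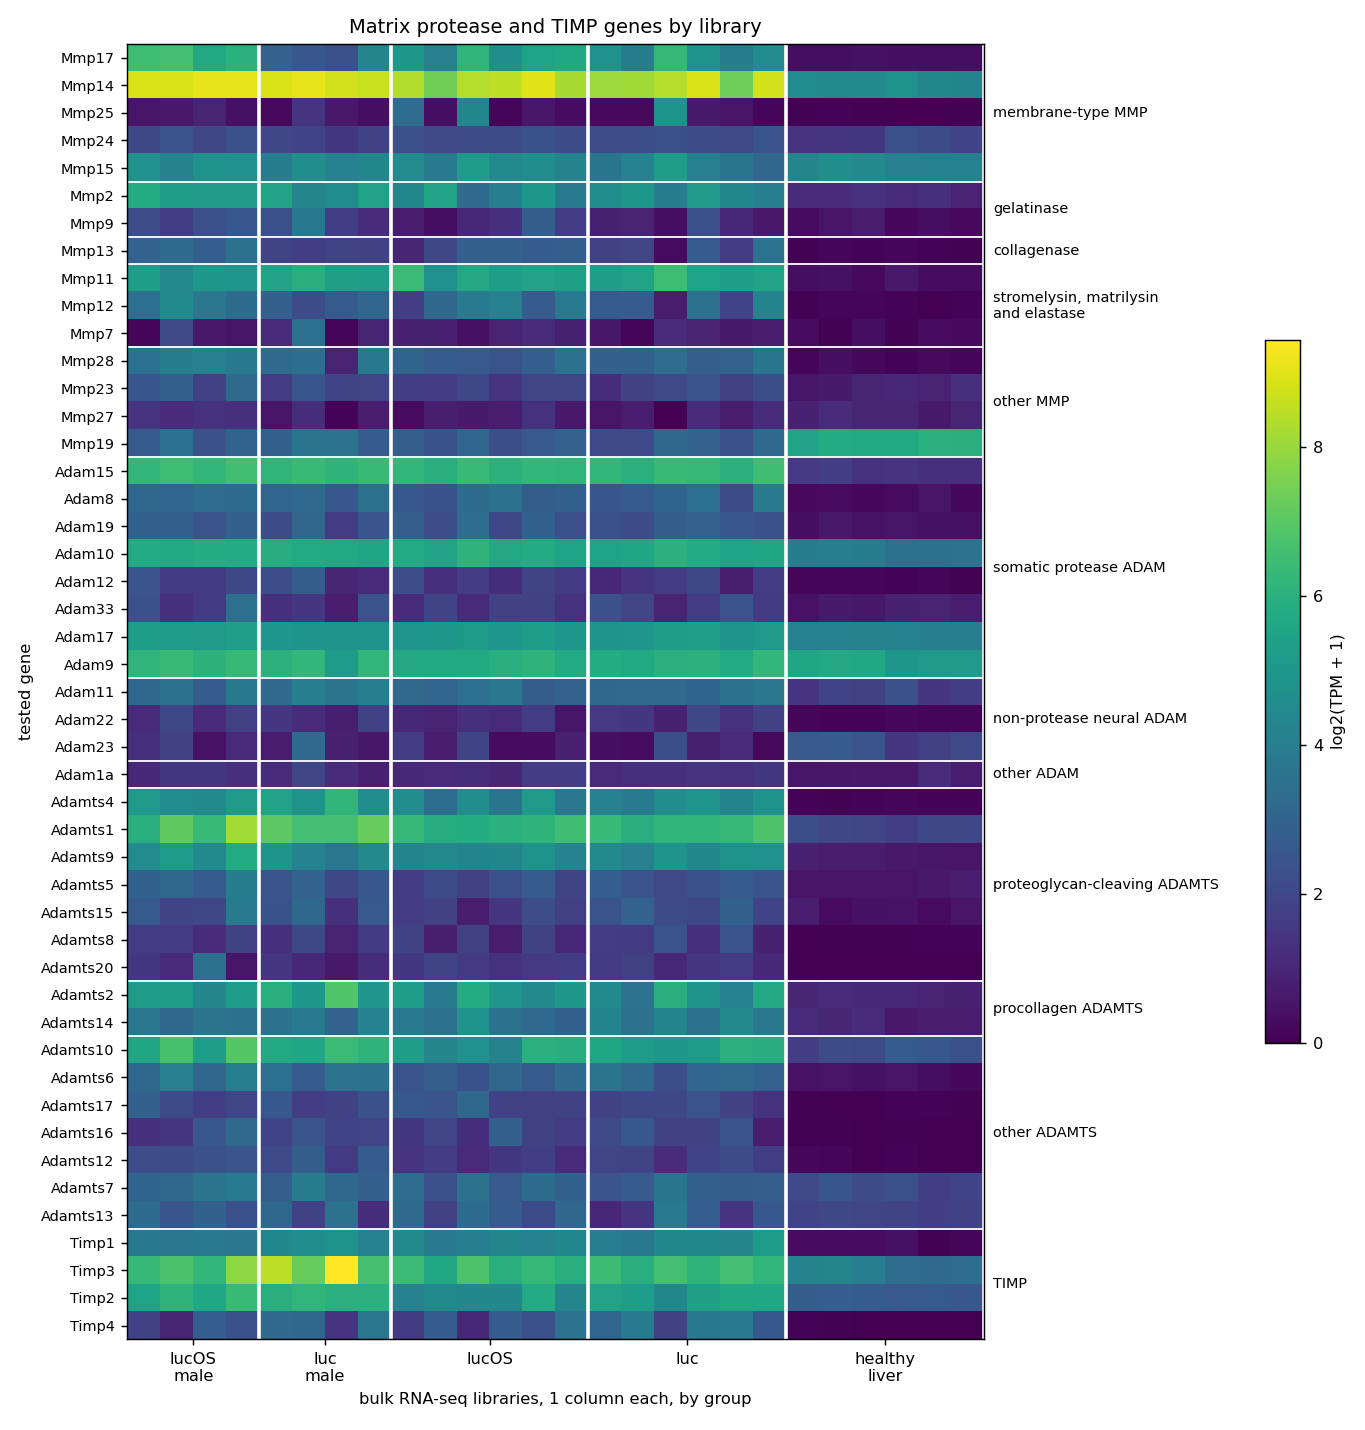
Levels of the 47 tested genes, as log2(TPM + 1), in 26 libraries. Columns are libraries grouped as lucOS male, luc male, lucOS, luc and healthy liver, and rows are genes grouped by role. Mmp14 is the brightest MMP row in tumours, and Mmp19 is brighter in healthy liver than in any tumour.

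As deposited, most of the tested matrix protease genes and all 4 TIMPs had higher TPM in tumours than in healthy liver. Of the 47 tested genes, 41 were higher and 2 lower in tumours, which is 87.2% and 4.26% of them. Over all genes tested, 71.8% were called higher and 16.9% lower. The median log2 fold change of the 47 genes was 1.97, against 1.03 over all genes, and 35 of the 47 lay above that all-gene median. With a pseudocount of 0.1 TPM these medians were 3.62 and 1.33. With no filter on low values they were 0.94 and 0.54, and 47 of 73 genes were called higher and 4 lower. Shares of all genes called with no filter were not counted. A gene that passes the filter only through the group where it is high had to differ, so these counts describe the genes that passed. In 33 of the 47 every tumour lay above every healthy liver, as in 54.8% of all genes, and in 1, Mmp19, every tumour lay below, as in 9.83% of all genes. When libraries were rescaled by the median ratio of shared genes, the median of all genes fell to 0.08 and that of the 47 was 1.5. Then 34 of the 47 were called higher and 7 lower, beside 43.3% and 40.3% of all genes. With quantile normalization 30 were higher and 6 lower, beside 43% and 37.8% of all genes, and 30 genes were higher and 2 lower under all 3 scalings.

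**Figure D2:**
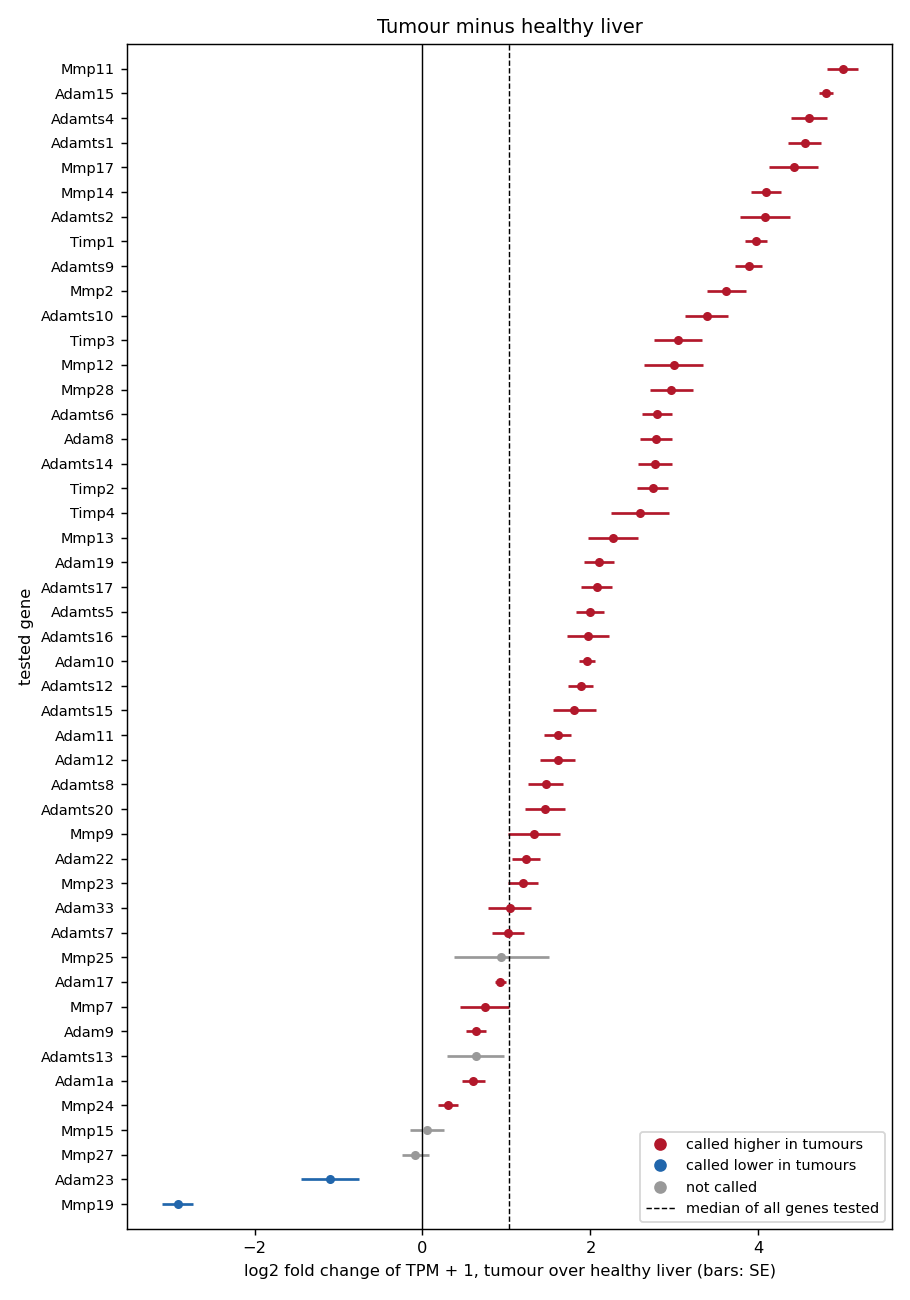
Log2 fold change of TPM + 1 in tumours over healthy liver for the 47 tested genes, with bars of 1 standard error. The solid line is at 0 and the dashed line at the median of all genes tested, 1.03. Mmp11, Adam15, Adamts4 and Adamts1 lie farthest to the right and Mmp19 farthest to the left.

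The membrane-type MMPs held both the most abundant protease RNA and genes that were not called. Mmp14, which cuts collagen and activates the gelatinase MMP2 at the cell surface, ranged over 162, 417 and 545 TPM (lowest, median, highest) in the 20 tumours, against 18.0, 21.7 and 28.0 TPM in the 6 healthy livers. The groups did not overlap. Mmp14 was higher in tumours by 4.09 ± 0.18 (SE) on the log2 scale, with a limma adjusted p of 9.15e-17. Mmp14 made up 69.2% ± 4.1 of the summed MMP level in lucOS male, 75.5% ± 3.1 in luc male, 64.6% ± 6.8 in lucOS and 66.5% ± 7.9 in luc tumours, and 21.6% ± 3.8 in healthy liver (SD, n = 4, 4, 6, 6 and 6). In healthy liver the leading MMP by level per length was Mmp19. Mmp15 (20.7 TPM in tumours, 19.0 TPM in healthy liver) and Mmp25 (2.75 and 0.0331 TPM) were not called, and Mmp24 (3.38 and 2.62 TPM) was called higher by 0.30 ± 0.12. Under median ratio scaling Mmp15 and Mmp24 were called lower in tumours, by -1.19 and -0.69, and under quantile normalization by -0.93 and -1.02. Mmp16 did not reach 1 TPM in any library.

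Mmp25 was uneven among tumours. This gene codes for a membrane-type MMP known from neutrophils. It stood at 27.3 TPM in luc replicate 3, 9.29 TPM in lucOS replicate 1 and 19.3 TPM in lucOS replicate 3, and its median over the 20 tumours was 0.447 TPM. Each of those 3 libraries summed to under 9 TPM over the 9 neutrophil markers in the table, at 7.82, 8.71 and 0.343 TPM. The same 3 libraries held 13.9, 8.82 and 8.97 TPM of Adamts13, the protease that cuts von Willebrand factor. Adamts13 was as high in libraries with little Mmp25, at 10.7 TPM in luc male replicate 3, 9.02 TPM in lucOS male replicate 1 and 8.18 TPM in luc male replicate 1. Adamts13 ranged over 1.07, 5.24 and 13.9 TPM in tumours, against 2.34, 2.82 and 3.09 TPM in healthy liver, where the values lay close together. Its difference of 0.63 ± 0.34 was not called (limma adjusted p = 0.0816). It was called with array weights (0.0342), without luc replicate 1 (0.0497) and without luc male replicate 4 (0.0355), with limma adjusted p in parentheses, and it was -0.39 under median ratio scaling and -0.69 under quantile normalization.

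Mmp17 codes for a membrane-type MMP held by a lipid anchor, and lies at chr5:129584151-129611099 (GRCm38.p6). It ranged over 3.94, 26.9 and 96.7 TPM in tumours, against 0.265, 0.287 and 0.326 TPM in healthy liver. Every tumour was above every healthy liver. The difference was 4.42 ± 0.29 with a limma adjusted p of 3.84e-13. Mmp17 stayed under 1 TPM in every healthy liver, and so passed the filter only through tumours. The highest tumour, lucOS male replicate 2, and the lowest, luc male replicate 3, are both male.

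Both gelatinases, which degrade denatured collagen and basement membrane, were called higher in tumours as deposited, beside 71.8% of all genes. Mmp2 ranged over 8.94, 27.2 and 56.5 TPM in tumours, against 0.897, 1.27 and 1.53 TPM in healthy liver. No tumour came down to the healthy range, and the difference was 3.62 ± 0.23 (limma adjusted p = 2.1e-13). Mmp9 was lower in level, at 0.271, 1.86 and 13.1 TPM in tumours, against 0.15, 0.248 and 0.63 TPM in healthy liver. The ranges overlapped. Mmp9 was called higher by 1.33 ± 0.31 (limma adjusted p = 0.000379), a call that was lost under quantile normalization, where the difference was 0.28. Mmp9 stayed under 1 TPM in every healthy liver, and so passed the filter only through tumours.

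Of the stromelysin, matrilysin and elastase genes, all 3 that were tested were called higher as deposited, beside 71.8% of all genes. All 3 stayed under 1 TPM in every healthy liver, and so passed the filter only through tumours. Mmp11 codes for stromelysin-3, which is activated inside the cell by furin. It ranged over 20.9, 40.2 and 89.6 TPM in tumours, against 0.184, 0.263 and 0.58 TPM in healthy liver. The lowest tumour was far above the highest healthy liver, and the rise of 5.00 ± 0.18 was the largest of the 47 genes on the log2(TPM + 1) scale. With a pseudocount of 0.1 TPM it was 6.70, and Adamts4 was 7.29. Its limma adjusted p was 2.21e-18.

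A row of MMP genes lies side by side on mouse chromosome 9, in a region where AP-1 sites close to the start are well known. The 10 genes run from Mmp13 to Mmp7, over chr9:7272514-7699585 (GRCm38.p6). The motif TGANTCA, which reads the same on both strands, was searched in the 250 bases before each start given by RefSeq. Promoter entries were found for 49 of the 79 genes, with 54 promoters in all. The motif was in 12 of the 54, which is 22.2%, and in 6.75% of all 32851 promoters. Among promoters of members called higher in tumours it was in 4 of 31, which is 12.9%. Of those 12 promoters, 8 belong to the cluster on chromosome 9, whose members arose by duplication and are not independent. Mmp8 and Mmp27 of the cluster had no match in this window. GTGGGAA, a site for the NOTCH partner RBPJ, was in 3.7% of the 54 and 5.42% of all promoters, and CACGTG, an E-box that MYC can bind, in 9.26% and 6.02%, both searched on either strand, and none of the 3 motifs is contained in another.

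The stretches around the motif are shown for 6 genes of the cluster, because these genes carry the same letters and had very different levels. They are RefSeq sequences of GRCm38.p6 on the plus strand, each ends at or before the base in front of the start, and capitals mark TGANTCA.
Mmp13, chr9:7272439-7272513: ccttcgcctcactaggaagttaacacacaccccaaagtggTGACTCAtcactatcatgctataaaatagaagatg
Mmp12, chr9:7347290-7347373: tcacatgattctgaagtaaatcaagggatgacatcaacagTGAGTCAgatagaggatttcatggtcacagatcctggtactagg
Mmp7, chr9:7691987-7692073: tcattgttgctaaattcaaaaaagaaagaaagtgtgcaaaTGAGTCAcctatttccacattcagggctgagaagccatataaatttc
Mmp3, chr9:7445736-7445821: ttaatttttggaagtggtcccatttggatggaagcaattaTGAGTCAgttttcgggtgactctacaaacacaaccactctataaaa
Mmp10, chr9:7502239-7502325: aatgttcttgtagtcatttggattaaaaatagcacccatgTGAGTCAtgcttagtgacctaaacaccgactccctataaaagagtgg
Mmp1a, chr9:7464028-7464114: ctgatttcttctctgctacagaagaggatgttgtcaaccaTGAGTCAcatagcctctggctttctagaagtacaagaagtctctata
The motif begins 35 bases before the start in Mmp13, 44 in Mmp12, 46 in Mmp3, 63 in both Mmp7 and Mmp10, and 73 in Mmp1a. A match describes letters and does not show binding.

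The levels of these genes ranged from a called rise to none. Mmp13, the main collagenase of rodents for fibrillar collagen, ranged over 0.2, 4.35 and 11.1 TPM in tumours, against 0.0293, 0.0618 and 0.114 TPM in healthy liver. The groups did not overlap, and the difference was 2.27 ± 0.30 (limma adjusted p = 1.64e-07). Mmp12, the macrophage elastase, ranged over 0.666, 7.71 and 22.0 TPM in tumours, against 0.0219, 0.069 and 0.112 TPM in healthy liver. It too was separate, with a difference of 2.99 ± 0.35 (limma adjusted p = 2.09e-08). Mmp13 and Mmp12 stayed under 1 TPM in every healthy liver, and so passed the filter only through tumours. Of 6 tested macrophage markers 3 were called higher and 0 lower, beside 71.8% and 16.9% of all genes. Sums of the list were 164 to 695 TPM in tumours, against 200.1 to 279 TPM in healthy liver. What part macrophages had in the rise of Mmp12 was not tested.

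Mmp7, the matrilysin, stayed low at 0.0997, 0.805 and 9.82 TPM in tumours, against 0.0462, 0.203 and 0.275 TPM in healthy liver. Its call of 0.74 ± 0.30 (limma adjusted p = 0.0225) was lost under median ratio scaling, where the difference was 0.43, and the sign turned under quantile normalization, at -0.14. Mmp3 reached at most 1.87 TPM, Mmp10 0.254 TPM and Mmp20, the tooth enamel protease, 0.0367 TPM in any library. Mmp1a was listed at 0 in every library and its near copy Mmp1b reached 0.11 TPM. Reads that fit both copies may be split or dropped, so these 2 values are uncertain. All 15 listed AP-1, ETS and RUNX factors of MMP promoters were called higher in tumours as deposited, beside 71.8% of all genes, and 12 and 10 of them under median ratio scaling and quantile normalization, beside 43.3% and 43%. Examples are Fos (34.3 TPM in tumours, 0.701 TPM in healthy liver) and Ets1 (56.9 and 7.44 TPM).

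**Figure D3:**
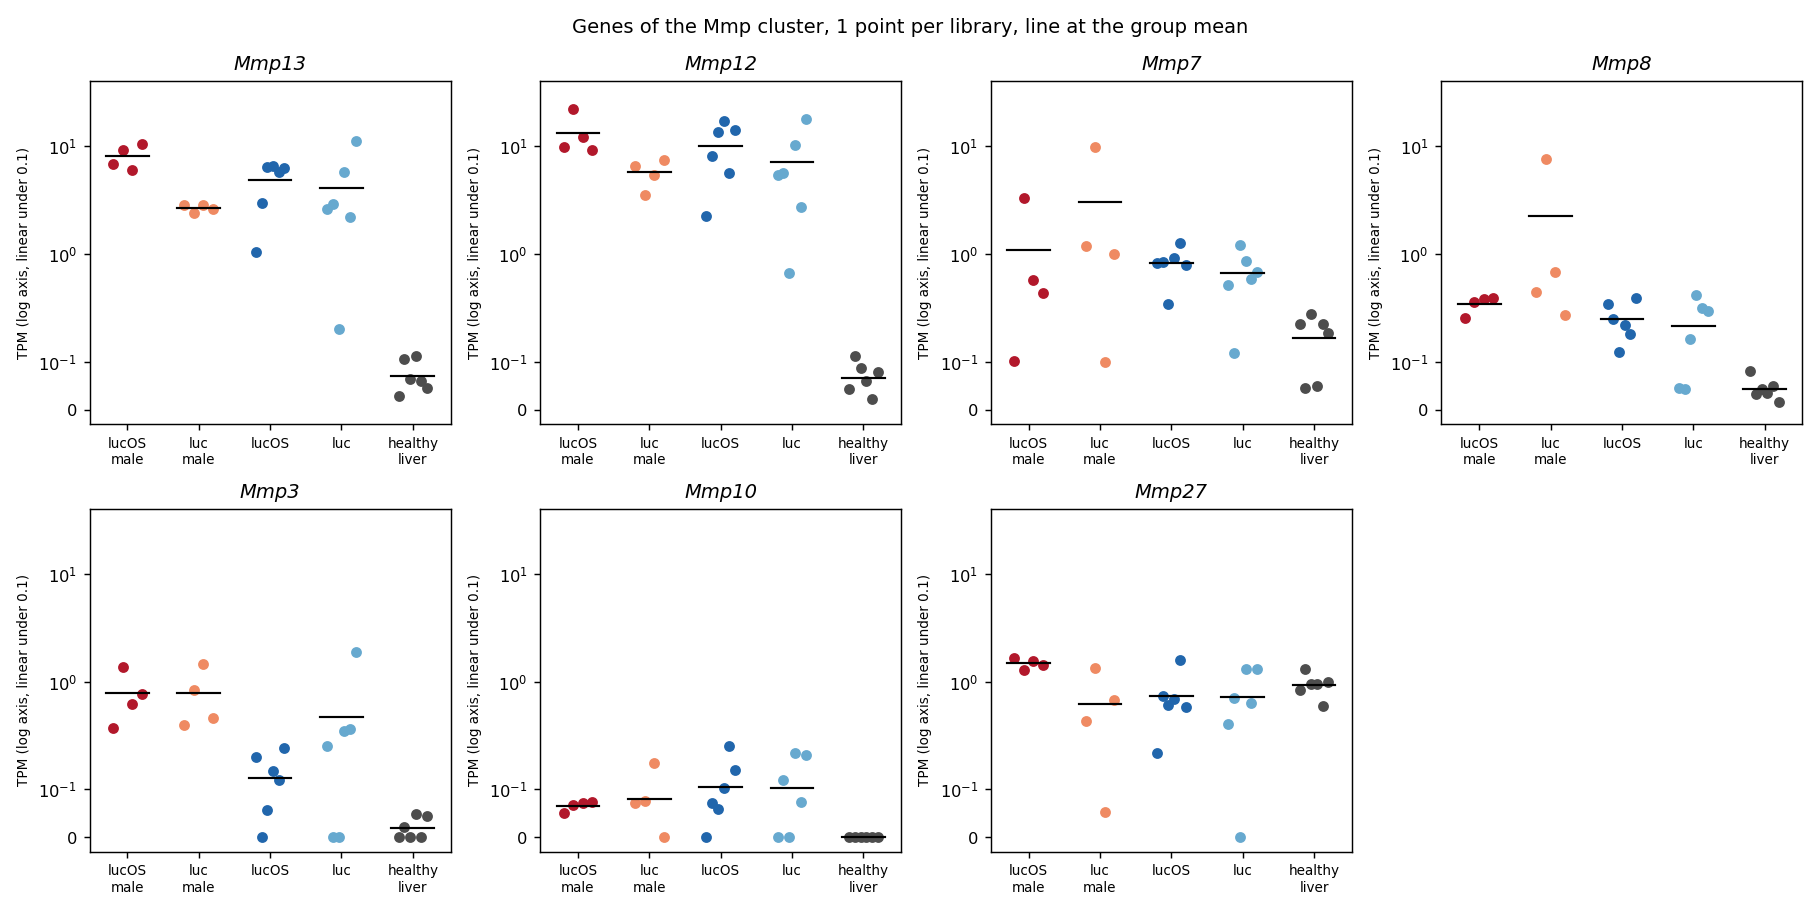
TPM in each library of 7 genes of the Mmp cluster on chromosome 9, on a log axis that is linear under 0.1 TPM. Points are libraries, lines are group means, and groups run lucOS male, luc male, lucOS, luc and healthy liver. Mmp13 and Mmp12 are above healthy liver in every tumour, Mmp10 is listed at 0 in healthy liver, and luc male replicate 2 stands apart in Mmp7 and Mmp8.

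Among the other MMPs, Mmp19 went the opposite way. Mmp19, a secreted MMP of broad reach, ranged over 3.23, 6.41 and 11.5 TPM in tumours, against 42.2, 54.0 and 62.9 TPM in healthy liver. The highest tumour was under the lowest healthy liver. The difference was -2.91 ± 0.19 (limma adjusted p = 1.67e-13), and it was called lower under all 3 scalings. The hepatocyte and Kupffer cell markers were also lower, 7 of 7 and 4 of 4 called, beside 16.9% of all genes. Sums of the 4 Kupffer markers were 5.88 to 219.9 TPM in tumours, against 143 to 256 TPM in healthy liver. What part hepatocytes and Kupffer cells had in the fall of Mmp19 was not tested. Mmp28, known as epilysin, was higher by 2.96 ± 0.26, at 9.02 TPM in tumours and 0.158 TPM in healthy liver. It passed the filter only through tumours. Mmp23 was higher by 1.2 ± 0.18, by 0.44 under median ratio scaling, and was not called under quantile normalization, at -0.05. Mmp27 at 0.889 and 0.936 TPM was not called. Under median ratio scaling and quantile normalization Mmp27 was called lower, by -0.77 and -1.24.

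As deposited, all 8 tested protease ADAMs of somatic tissues were called higher in tumours, beside 71.8% of all genes. Under median ratio scaling 5 were higher and 2 lower, beside 43.3% and 40.3% of all genes. With quantile normalization 5 were higher and 0 lower, beside 43% and 37.8% of all genes. Adam8, Adam12, Adam19 and Adam33 stayed under 1 TPM in every healthy liver, and so passed the filter only through tumours. Adam33, a membrane protease known from airway tissue, was higher by 1.04 ± 0.25 as deposited and was not called under either scaling, at 0.37 and -0.15. Adam15, a protease with an integrin binding site, had the largest rise of the 8 on this scale. It ranged over 59.0, 74.7 and 94.6 TPM in tumours, against 1.45, 1.67 and 2.40 TPM in healthy liver. The difference of 4.80 ± 0.08 had the smallest limma adjusted p of the 47 genes, 2.98e-24. Adam10 ranged over 42.9, 52.9 and 69.6 TPM in tumours, against 10.1, 13.0 and 15.8 TPM in healthy liver, and was higher by 1.96 ± 0.10 (limma adjusted p = 1.52e-15). The groups were separate. Healthy replicates 1 to 3 carry another series of animal numbers than replicates 4 to 6, and Adam10 was 14.8, 15.8 and 14.9 TPM in the first and 10.1, 10.4 and 11.2 TPM in the other.

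Adam17, also called TACE for its release of TNF, depended on the scaling. It was 26.9, 30.8 and 39.6 TPM in tumours, against 15.4, 16.7 and 17.6 TPM in healthy liver. As deposited it was higher by 0.93 ± 0.06 (limma adjusted p = 1.12e-12), which is under the median of all genes. Under median ratio scaling it was called lower, by -0.32 (limma adjusted p = 1.91e-05), and under quantile normalization the difference was -0.03. Adam9 behaved the same way, with 0.64 as deposited, -0.64 under median ratio scaling and -0.03 under quantile normalization. Adam8, a leukocyte protease, was higher by 2.78 ± 0.19 and Adam19 by 2.10 ± 0.18, both under every scaling. Adam28 did not reach 1 TPM in any library.

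The 3 ADAMs of the nervous system that lack protease activity split. Adam11 was higher by 1.61 ± 0.16 and Adam22 by 1.23 ± 0.17, and both calls were lost under quantile normalization, at 0.29 and 0.32. Adam22 passed the filter only through tumours. Adam23 was lower in tumours by -1.10 ± 0.35 (limma adjusted p = 0.00483). It was 0.193, 0.769 and 8.78 TPM in tumours, against 1.78, 3.87 and 5.61 TPM in healthy liver, and the ranges overlapped. The highest value was that of luc male replicate 2.

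All 7 ADAMTS genes of the group that cuts proteoglycans such as versican and aggrecan were higher, under all 3 scalings. Of all genes 71.8% were called higher as deposited, 43.3% under median ratio scaling and 43% under quantile normalization. All of the group but Adamts1 stayed under 1 TPM in every healthy liver, and so passed the filter only through tumours. Adamts1 ranged over 56.3, 80.5 and 276 TPM in tumours, against 2.35, 3.02 and 3.77 TPM in healthy liver, and rose by 4.55 ± 0.19 (limma adjusted p = 4.57e-17). Adamts4 ranged over 9.49, 23.8 and 70.6 TPM in tumours, against 0.0441, 0.0542 and 0.0945 TPM in healthy liver, and rose by 4.60 ± 0.22 (limma adjusted p = 4.1e-16). Neither gene overlapped between tumours and healthy liver. Adamts9 rose by 3.88 ± 0.16. Adamts20 averaged 2.12 TPM in tumours and was listed at 0 in all 6 healthy livers, and Adamts5, Adamts8 and Adamts15 rose by 1.99, 1.47 and 1.81. Their substrate gene Vcan was also higher, at 3.57 TPM in tumours and 0.0226 TPM in healthy liver.

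Of the procollagen enzymes, which trim the amino end of new collagen chains, Adamts2 rose by 4.08 ± 0.30 (38.6 TPM in tumours, 1.02 TPM in healthy liver) and Adamts14 by 2.77 ± 0.20. Adamts3 stayed under 1 TPM in every library. Of the 7 other ADAMTS genes tested, 6 were called higher as deposited, beside 71.8% of all genes. Adamts6, Adamts12, Adamts16 and Adamts17 stayed under 1 TPM in every healthy liver, and so passed the filter only through tumours. Adamts10, which acts on fibrillin fibres, rose by 3.39 ± 0.25, at 55.5 TPM in tumours and 3.93 TPM in healthy liver. Adamts7 rose by 1.02 ± 0.19 as deposited and was not called under median ratio scaling or quantile normalization, at -0.06 and -0.28. Of the collagen genes, Col1a1 (117 TPM in tumours, 2.23 TPM in healthy liver) and Col4a1 (438 and 7.48 TPM) were called higher and Col18a1 (129 and 284.5 TPM) was called lower.

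All 4 inhibitor genes were called higher under all 3 scalings. Of all genes 71.8% were called higher as deposited, 43.3% under median ratio scaling and 43% under quantile normalization. Timp1 and Timp4 stayed under 1 TPM in every healthy liver, and so passed the filter only through tumours. Timp1 ranged over 12, 18.0 and 34.4 TPM in tumours, against 0.0444, 0.224 and 0.341 TPM in healthy liver, and rose by 3.97 ± 0.13 (limma adjusted p = 2.25e-19). Timp3 ranged over 48.6, 87.5 and 692 TPM in tumours, against 8.83, 12.4 and 18.6 TPM in healthy liver, and rose by 3.05 ± 0.29 (limma adjusted p = 3.61e-10). Both were separate between the groups. Timp3 was 17.5, 18.6 and 15.6 TPM in healthy replicates 1 to 3 and 9.28, 8.83 and 9.26 TPM in replicates 4 to 6. Timp2, which both inhibits MMPs and helps MMP14 activate MMP2, rose by 2.74 ± 0.19 (47.5 TPM in tumours, 5.54 TPM in healthy liver). Timp4 rose by 2.59 ± 0.34, at 0.993, 5.71 and 14.2 TPM in tumours, and was listed at 0 in 4 of 6 healthy livers. The membrane-bound MMP inhibitor Reck was also higher, at 11.6 TPM in tumours and 2.04 TPM in healthy liver.

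The balance of MMP and TIMP RNA was also set out per library. The summed MMP level over the summed TIMP level, both per length, was 2.34 to 5.44 in lucOS male, 0.705 to 2.92 in luc male, 3.26 to 4.84 in lucOS and 1.51 to 4.52 in luc tumours, and 3.79 to 7.5 in healthy liver. The lowest value was that of luc male replicate 3, the library with the highest Timp3. The summed level of all 79 genes was 1608 ± 286 TPM in lucOS male, 1650 ± 260 TPM in luc male, 1098 ± 206 TPM in lucOS and 1142 ± 200 TPM in luc tumours, and 219.5 ± 18.6 TPM in healthy liver (SD, n = 4, 4, 6, 6 and 6).

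Genes that act on the proteases moved in both directions. Of 30 tested activators, inhibitors and partners, 21 were higher and 6 lower in tumours, beside 71.8% and 16.9% of all genes, so that the shares lie near those of all genes. Under median ratio scaling 17 were higher and 12 lower, beside 43.3% and 40.3% of all genes. With quantile normalization 16 were higher and 11 lower, beside 43% and 37.8% of all genes. Plasminogen (Plg), made by hepatocytes and the source of an MMP activator, was 70.3 TPM in tumours and 1848 TPM in healthy liver, lower by -5.57 ± 0.59. The protease inhibitor gene Pzp was 120.4 and 2272 TPM, lower by -5.16 ± 0.62. The activators of plasminogen Plat (30.3 TPM in tumours, 0.239 TPM in healthy liver) and Plau (11.4 and 0.893 TPM) were higher. Furin, which activates MMP11 and the membrane-type MMPs, was lower by -0.79 ± 0.11. The ADAM17 carriers Rhbdf1 (102.1 and 5.67 TPM) and Rhbdf2 (35.6 and 6.38 TPM) were higher. Of 29 tested substrates, 23 were higher and 5 lower as deposited, beside 71.8% and 16.9% of all genes. Under either other scaling 19 were higher and 6 lower, beside the shares of all genes just given. Notch1 was 622 and 5.93 TPM. The titles give nicd and do not name the receptor it comes from. Reads of a Notch1 transgene could not be told apart from those of the mouse gene here.

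Tumours and healthy livers have different series of animal numbers in their titles, and group and series cannot be told apart. Markers of other cells were also compared, beside 71.8% of all genes called higher and 16.9% called lower. Of the stellate cell and fibroblast markers 6 of 10 were higher and 2 lower, with sums of 322 to 1003 TPM in tumours, against 138 to 149 TPM in healthy liver. Of the cholangiocyte markers 6 of 7 were higher, with sums of 360 to 2379 TPM in tumours, against 32.8 to 41.1 TPM in healthy liver. Of 8 endothelial markers 3 were higher and 1 lower. The part of these cells in the levels of the proteases was not tested.

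No gene was called between antigens where the title gives no sex. Between 6 lucOS and 6 luc tumours none of the 47 genes was called by limma, as 0% of all 15453 genes were called higher and 0% lower. At an unadjusted p under 0.05 there were 2 of the 47 and 385 of all genes. The 2 were Timp2 and Adamts15. Timp2 ranged over 17.0, 19.9 and 54.3 TPM in lucOS tumours, against 19.1, 41.9 and 48.6 TPM in luc tumours. All lucOS tumours but replicate 5 were at or under 21.3 TPM, and all luc tumours but replicate 3 were at or above 38.2 TPM. The difference was -0.70 ± 0.26, with a limma adjusted p of 0.997. Adamts15 differed by -0.80 ± 0.36 and Mmp15 by 0.51 ± 0.27, both with the same adjusted p.

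Mmp17 was not called between these tumours. It ranged over 16.2, 37.2 and 71.6 TPM in lucOS tumours, against 14.7, 24.5 and 76.3 TPM in luc tumours. The ranges lay on each other. The difference was 0.45 ± 0.41 (limma adjusted p = 0.997). Timp1 (-0.10 ± 0.17), Timp3 (-0.16 ± 0.37) and Timp4 (-0.85 ± 0.48) were not called either.

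In male tumours the antigen went with 1 gene of the 47, Mmp17. It was 89.0, 96.7, 52.0 and 64.6 TPM in lucOS male tumours, against 6.73, 4.87, 3.94 and 18.5 TPM in luc male tumours. All lucOS male tumours were above all luc male tumours, with a gap between 18.5 and 52.0 TPM. The difference was 3.19 ± 0.50 with a limma adjusted p of 0.0179. Of all genes tested 0.259% were called higher and 0.0906% lower in this comparison. The call did not hold in every setting. The adjusted p was 0.152 in a fit of these 2 groups alone, 0.0748 without luc male replicate 3, 0.0601 without lucOS male replicate 1 and 0.0676 without lucOS male replicate 2. In these settings the difference stayed between 2.95 and 3.19, and over all settings it was 2.95 to 3.61.

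**Figure D4:**
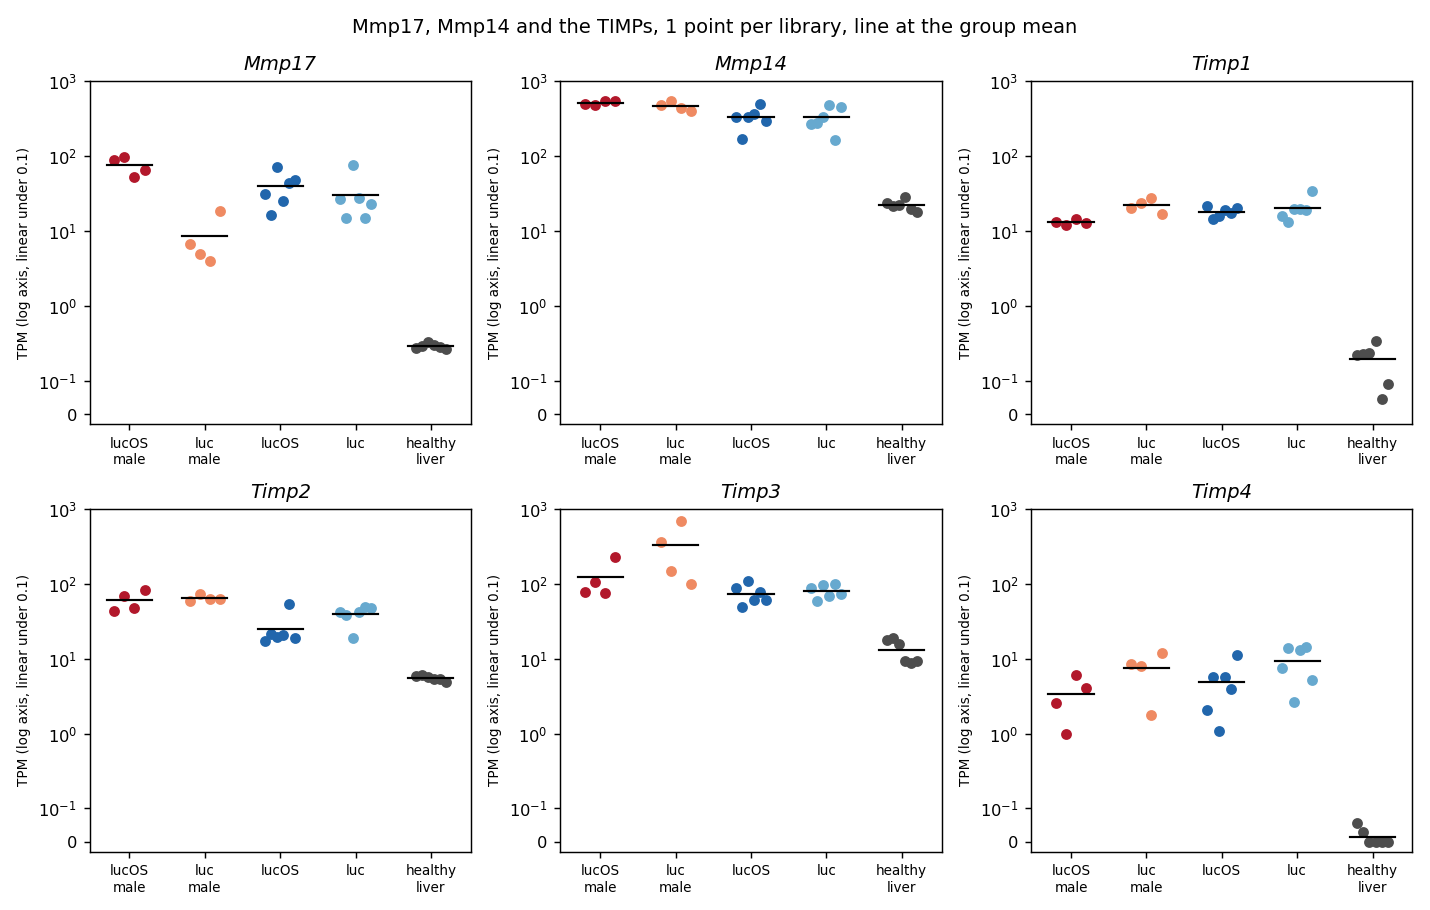
TPM in each library of Mmp17, Mmp14 and the 4 TIMP genes, on a log axis that is linear under 0.1 TPM. Points are libraries, lines are group means, and groups run lucOS male, luc male, lucOS, luc and healthy liver. In Mmp17 the lucOS male tumours sit between 52.0 and 96.7 TPM and the luc male tumours between 3.94 and 18.5 TPM.

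No other gene of the 47 was called between lucOS male and luc male tumours. At an unadjusted limma p under 0.05 there were 10 of the 47 and 2675, or 17.3%, of all genes. How many of all genes do not overlap between 2 tumour groups was not counted, here or in the comparisons below. Mmp13 was 6.86, 9.16, 6.05 and 10.4 TPM in lucOS male tumours, against 2.87, 2.40, 2.86 and 2.60 TPM in luc male tumours. These values did not overlap, and the difference was 1.28 ± 0.52 (limma adjusted p = 0.206). Timp1 was 13.0, 12, 14.3 and 12.6 TPM in lucOS male tumours, against 19.9, 23.8, 27.8 and 16.6 TPM in luc male tumours. Here every lucOS male tumour was lower, with a difference of -0.70 ± 0.21 (limma adjusted p = 0.123). Adam17 was 38.5, 35.9, 33.6 and 39.6 TPM in lucOS male tumours, against 30.4, 28.2, 28.8 and 26.9 TPM in luc male tumours. It too did not overlap, at 0.36 ± 0.11 (limma adjusted p = 0.121). Timp3 differed by -1.18 ± 0.46 (0.193), Timp4 by -0.90 ± 0.59 (0.43) and Timp2 by -0.14 ± 0.31 (0.852), with limma adjusted p in parentheses. Without luc male replicate 4, Timp1 and Timp3 were called lower, with limma adjusted p of 0.046 and 0.043.

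Luc male replicate 2 stood apart in neutrophil genes. Its 9 neutrophil markers summed to 1256 TPM, against 12.5, 20.7 and 16.1 TPM in the other luc male tumours. The same library held 7.65 TPM of Mmp8, the neutrophil collagenase, which was at most 0.678 TPM in any other library. Mmp9, stored in neutrophil granules, was 13.1 TPM there, against 3.93, 2.33 and 1.31 TPM in the other luc male tumours. Mmp7 was 9.82 TPM, against 1.19, 0.0997 and 0.992 TPM. Without this library Mmp17 differed between luc male and luc tumours by -1.55 with a limma adjusted p of 0.0535.

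Between luc male and luc tumours 1 gene of the 47 was higher and 2 lower, beside 8.94% and 7.97% of all genes. Timp3 was 362, 149.5, 692 and 98.7 TPM in luc male tumours, against 59.3, 81.2 and 98.2 TPM (lowest, median, highest) in luc tumours. The lowest male value was just above the highest of the other group, and the difference was 1.62 ± 0.42 (limma adjusted p = 0.0129). Mmp17 was lower in luc male tumours, at 3.94 to 18.5 TPM, against 14.7 to 76.3 TPM in luc tumours. Only luc male replicate 4 reached into the luc range. The difference was -1.71 ± 0.46 (limma adjusted p = 0.0155). Mmp24 was 2.98, 2.72, 1.89 and 2.52 TPM in luc male tumours, against 3.22, 3.69 and 4.62 TPM in luc tumours, lower by -0.44 ± 0.13 (limma adjusted p = 0.0301). Without luc male replicate 3 none of these 3 was called, with limma adjusted p of 0.0627 for Timp3, 0.068 for Mmp17 and 0.122 for Mmp24. Over 17 settings the call of Timp3 was lost in 1, that of Mmp17 in 2 and that of Mmp24 in 5.

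Genes near the threshold in the same comparison included Mmp9 at 1.23 ± 0.49 (limma adjusted p = 0.0892), which was called without luc replicate 4 or without luc male replicate 4. Without luc male replicate 2, the library with high neutrophil markers, it was 0.71 with a limma adjusted p of 0.337. Timp2 was 59.5, 73.5, 63.1 and 62.4 TPM in luc male tumours, against 19.1, 41.9 and 48.6 TPM in luc tumours. The values did not overlap, and the difference of 0.75 ± 0.29 was not called (limma adjusted p = 0.0809). Mmp14 differed by 0.58 ± 0.27 (0.145), Timp1 by 0.16 ± 0.19 (0.604) and Timp4 by -0.30 ± 0.53 (0.734), with limma adjusted p in parentheses. Elastin (Eln), a substrate of MMP12, was called higher, at 817 TPM in luc male and 120.2 TPM in luc tumours. It was 1 of 2 of the 29 tested substrates called higher, with 0 lower. Of all genes 8.94% were called higher and 7.97% lower in this comparison. Of the 15 AP-1, ETS and RUNX factors 5 were higher and 0 lower, among them Fosb by 1.77 and Jun by 1.4, and of 28 activators, inhibitors and partners 6 were higher and 0 lower, led by Plat at 2.05.

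Between lucOS male and lucOS tumours 5 genes of the 47 were higher and 0 lower, beside 15.2% and 9.29% of all genes. Under median ratio scaling 4 were higher and 1 lower, and under quantile normalization 2 were higher and 1 lower. In a fit of these 2 groups alone, 5 of the 45 genes tested were higher and 1 lower. The lower gene was Timp1 each time. Shares of all genes called in these settings were not counted. Timp2 was 43.6, 68.9, 47.9 and 81.3 TPM in lucOS male tumours, against 17.0, 19.9 and 54.3 TPM in lucOS tumours. All but lucOS replicate 5 were under the lowest male tumour. The difference was 1.31 ± 0.29 (limma adjusted p = 0.00369) and was called in every setting tried. Adamts5, an aggrecanase, was 6.69, 8, 5.6 and 14.6 TPM in lucOS male tumours, against 2.10, 3.10 and 5.52 TPM in lucOS tumours. The groups did not overlap, and the difference of 1.12 ± 0.25 (limma adjusted p = 0.00425) was also called in every setting.

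The other 3 calls were less firm. Adamts12 was 3.69, 3.42, 4.09 and 4.67 TPM in lucOS male tumours, against 1.18, 1.80 and 2.38 TPM in lucOS tumours, with no overlap and a difference of 0.86 ± 0.23 (limma adjusted p = 0.0128). Mmp23 was 4.74, 6.54, 2.44 and 8.63 TPM in lucOS male tumours, against 1.67, 2.63 and 3.17 TPM in lucOS tumours, and differed by 0.82 ± 0.27 (limma adjusted p = 0.0339). Adamts6, a protease of fibrillin fibres, was 7.78, 16.4, 7.67 and 15.9 TPM in lucOS male tumours, against 4.26, 5.77 and 8.95 TPM in lucOS tumours, and differed by 0.82 ± 0.28 (limma adjusted p = 0.0379). Both of these overlapped between the groups. The call of Adamts12 was lost in 2 of 17 settings, that of Mmp23 in 8 and that of Adamts6 in 10. Mmp17 at 1.04 ± 0.46 was not called (limma adjusted p = 0.1), nor were Mmp14 at 0.70 ± 0.27 (0.0646) and Mmp2 at 0.96 ± 0.36 (0.0572). Of 17 settings, Mmp17 was called higher in 1, with array weights (limma adjusted p = 0.0404), Mmp14 in 2 and Mmp2 in 3. Timp1 was 13.0, 12, 14.3 and 12.6 TPM in lucOS male tumours, against 14.3, 18.1 and 21.3 TPM in lucOS tumours, with a difference of -0.44 ± 0.19 that was not called (limma adjusted p = 0.0995). It was called lower under median ratio scaling (-0.56, limma adjusted p = 0.0479), under quantile normalization (-0.62, limma adjusted p = 0.0292) and in the fit of these 2 groups alone (limma adjusted p = 0.0332). Of the tested substrates 8 of 29 were higher and 1 lower, beside 15.2% and 9.29% of all genes. Among them Fbn1 was higher by 1.59 and Vcan lower by -1.03. Of the activators, inhibitors and partners 5 of 28 were higher, with Reck higher by 1.23.

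**Figure D5:**
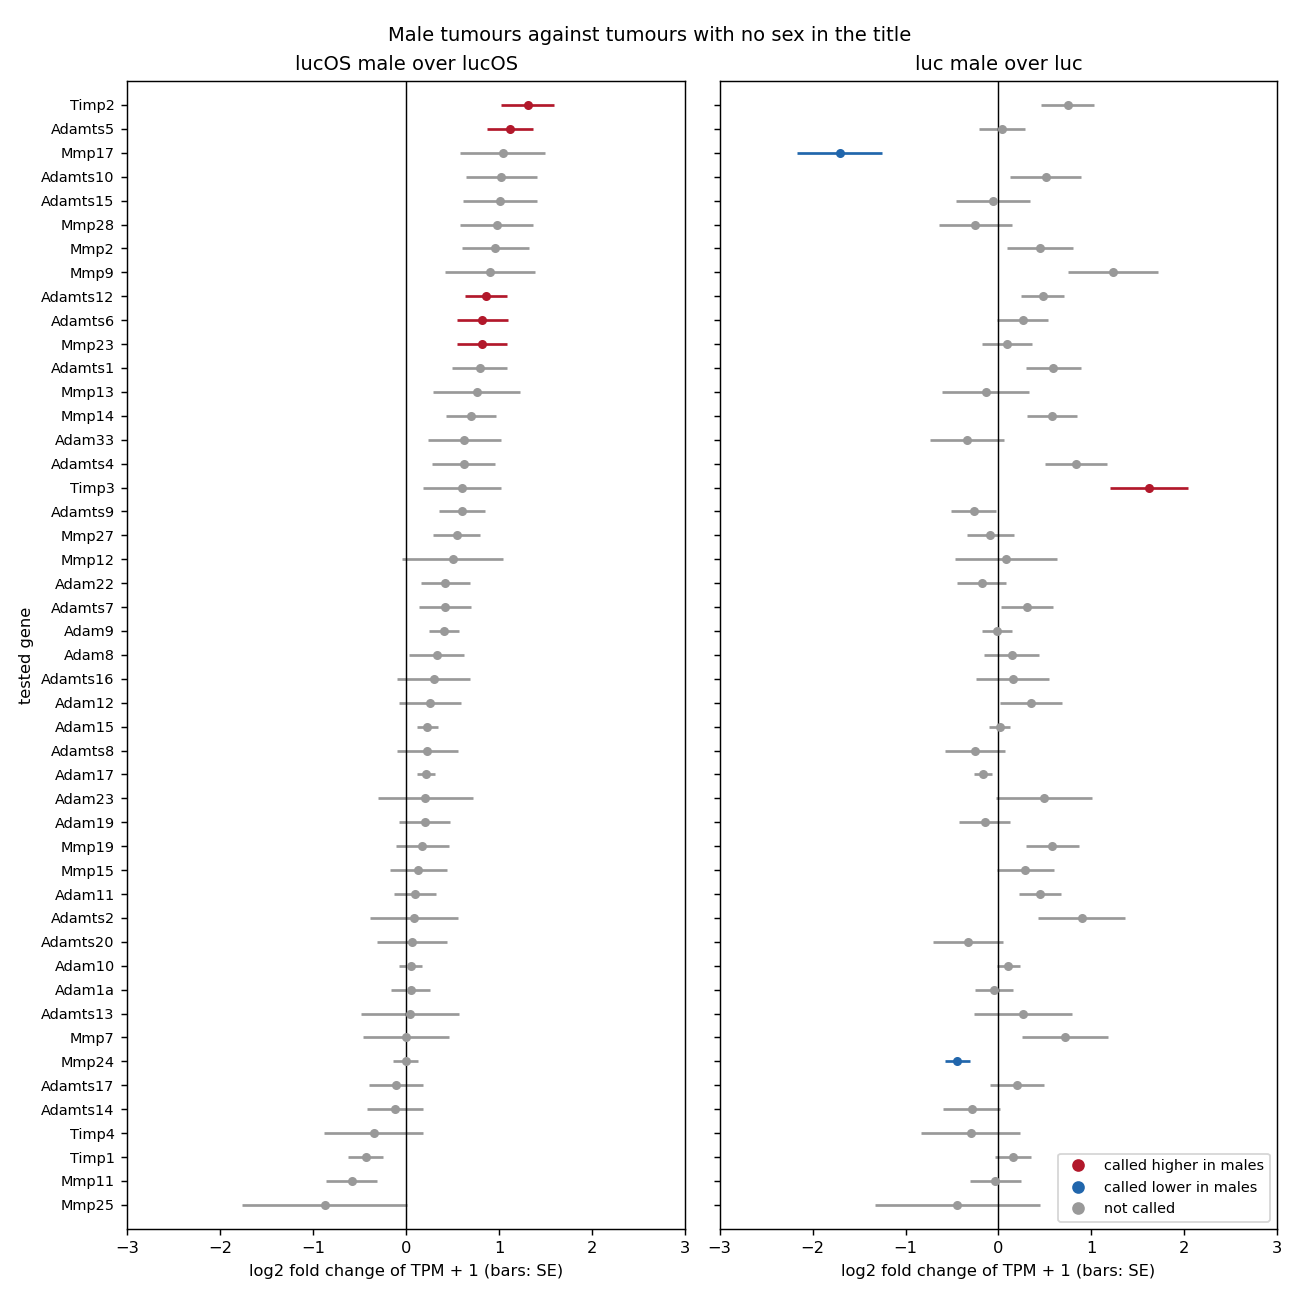
Log2 fold change of TPM + 1 for the 47 tested genes in lucOS male over lucOS tumours (left) and luc male over luc tumours (right), with bars of 1 standard error. Timp2, Adamts5, Adamts12, Adamts6 and Mmp23 are called higher on the left, and on the right Timp3 is called higher and Mmp17 and Mmp24 lower.

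All male tumours carry 1 series of animal numbers and the untitled tumours carry others, and sex and series cannot be told apart. Summed TPM were 999996.2 to 1000256.3 in the male libraries and 1000000 in all others, for a reason not given in the sources used here. If the male libraries were processed differently, that could not be told apart from sex and series either. Markers of other tissues moved with the male label. The 6 lung epithelial markers summed to 16 to 52.7 TPM in lucOS male and 11.9 to 31.3 TPM in luc male tumours, against 0.369 to 2.36 TPM in lucOS and 0.818 to 1.86 TPM in luc tumours. Among them Lamp3 went the other way, at means of 0.0944 TPM in lucOS male and 0.126 TPM in luc male tumours, against 0.469 TPM in lucOS and 0.359 TPM in luc tumours. The B cell markers summed to 12.8 to 31.7 TPM in lucOS male and 10.9 to 21.9 TPM in luc male tumours, against 0.73 to 2.39 TPM in lucOS and 0.592 to 1.46 TPM in luc tumours. Most of these lung and B cell genes reach 1 TPM mainly in male tumours, and no count of calls is given for them. In lucOS male tumours 3 of 6 macrophage markers and 4 of 10 stellate cell and fibroblast markers were higher, beside 15.2% of all genes. The stellate and fibroblast sums were 555 to 1003 TPM, against 322 to 633 TPM in lucOS tumours. The endothelial markers were higher for 4 of 8 in lucOS male and 2 of 8 in luc male tumours. Shares of all genes called higher there were 15.2% and 8.94%. The part of these cells in the called proteases and TIMPs was not tested.

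The test of whether the antigen difference itself changed with the male label called none of the 47 genes with limma, as 0% of all 15453 genes were called higher and 0% lower. At an unadjusted p under 0.05 there were 7 of the 47 and 1842 of all genes. Mmp17 had the smallest p of the 47, 0.000443. Its antigen difference was larger in male tumours by 2.75 ± 0.64, with a limma adjusted p of 0.332. Adamts5 (1.08 ± 0.35), Adam17 (0.38 ± 0.14) and Timp1 (-0.59 ± 0.27) had limma adjusted p of 0.332, 0.35 and 0.406. Over the settings tried the adjusted p of Mmp17 was 0.052 to 0.608. Ordered by mean level, Mmp17 was 75.6 ± 20.8 TPM in lucOS male, 39.2 ± 19.8 TPM in lucOS, 30.4 ± 23.1 TPM in luc and 8.50 ± 6.75 TPM in luc male tumours, and 0.289 ± 0.0224 TPM in healthy liver (SD, n = 4, 6, 6, 4 and 6). The lucOS male and lucOS groups, and the lucOS and luc groups, overlapped and were not called apart, and luc male was called below luc. With array weights lucOS male was called above lucOS (limma adjusted p = 0.0404). The call of luc male below luc was lost in 2 of 17 settings.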

How the data were processed

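RNA from whole tissue was extracted with Trizol and RNeasy and sequenced after TruSeq preparation, per the labels' protocols. The authors deposited 1 table of TPM for the 26 bulk libraries. Per the submitters' processing notes, the tools were TopHat2, featureCounts and DESeq2 and the build was mm10; their roles and versions were not stated there. TPM keeps no depth, so sequencing depth is unknown here and intervals for counting error could not be given. Of 24063 genes, 27 names turned into dates and 2 sharing a name were left out, leaving 24034. The other 30 samples of the series were not used here.

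Groups came from the titles. Values were tested as log2(TPM + 1) with limma 3.58.1 (trend, robust, statmod 1.5.0) in R 4.3.3, for genes of at least 1 TPM in at least 4 libraries, with Benjamini-Hochberg adjustment over all genes tested and a threshold of 0.05. Tumour against healthy liver, with the 4 tumour groups weighted equally, was fitted on 26 libraries, and the other comparisons on the 20 tumours. Tumour means over all groups weight the groups equally. The fits were first tested on simulated data with known changes. Sequences are those of RefSeq, build GRCm38.p6. Python 3.11.15, pandas 2.3.3 and matplotlib 3.10.9 were used.

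The members and gene lists were chosen with earlier results of these data known. Named were, for tumours against healthy liver, up to 10 called genes in each direction by size of change among those averaging at least 5 TPM in a group, all called genes (or the 3 of smallest p) elsewhere, and Mmp17, Mmp2, Mmp9, Mmp14, Mmp7, Mmp12, Mmp13, Adam10, Adam17, Adamts13 and the TIMPs where they bear on a comparison, a choice made once the values were known. Other genes named to describe a role group were chosen after their values were seen. Alternatives were pseudocount, filter, scaling, microRNA genes, weights, groups in the fit, animal number series and leaving out each library.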

Additional observations from a re-analysis of the deposited data

Results flagged for a closer look

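In groups of 4 or 6 libraries, 13 of 140 groups of named genes held 1 library far from the rest. The flag rests on gaps in TPM, with a nominal rate of about 1 in 20 groups for normally distributed values. Whether TPM follow that distribution was not tested. These groups also share the same 26 libraries and are not independent, so the 13 cannot be read as an excess. Among luc tumours, replicate 3 was high in Mmp11 (89.6 TPM, others 36.9 to 44.3), Mmp17 (76.3 TPM, others 14.7 to 27.4) and Mmp15 (36.7 TPM, others 7.68 to 17.4) and low in Timp2 (19.1 TPM, others 38.2 to 48.6). Replicate 6 of luc was high in Timp1 (34.4 TPM, others 13.2 to 19.5) and replicate 4 in Mmp9 (3.95 TPM, others 0.294 to 1.14). In lucOS tumours replicate 5 was high in Timp2 (54.3 TPM, others 17.0 to 21.3) and Mmp9 (5.82 TPM, others 0.271 to 2.24). Luc male replicate 2 was high in Mmp7 (9.82 TPM, others 0.0997 to 1.19). The second lucOS male replicate was high in Mmp7 (3.27 TPM, others 0.1 to 0.569) and low in Mmp15 (17.4 TPM, others 26.1 to 27.1). Healthy replicate 4 was high in Mmp11 (0.58 TPM, others 0.184 to 0.325) and Adamts4 (0.0945 TPM, others 0.0441 to 0.0564). No cause was tested.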

How the results depend on the processing

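No paired analysis was possible because the titles carry animal numbers and no replicate number that groups share. Across 58 results of named genes, 1356 of 1421 alternatives kept the direction and the side of the threshold, 37 lost a call, 16 gained one and 12 changed sign. Many of these results lie far from the threshold, so the pooled count says little about calls near it. For lucOS male against lucOS the call of Adamts6 was lost in 10 of 17 settings and that of Mmp23 in 8, and those of Timp2 and Adamts5 in 0. That of Mmp17 between male groups was lost in 4 of 15. Medians and differences below are log2 values. Counts are of called genes among the 47, unless the filter or the libraries in the fit changed which genes were tested. With no filter 71 genes were tested in the tumour comparisons, and in the fits of 2 groups alone 43 to 45 were. Shares of all genes called were not counted for the counts below.

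For tumours against healthy liver the median of the tested genes was 3.62 with a pseudocount of 0.1 TPM, 0.94 with no filter on low values, 1.5 under median ratio scaling and 1.02 under quantile normalization. Under those 2 scalings Adam17 was -0.32 and -0.028 and Adamts13 -0.39 and -0.69, and Mmp7 was -0.14 under quantile normalization. With no filter the median was 0.13 for lucOS male against lucOS and 0.035 for the interaction, and under quantile normalization the first of these was 0.16. The count for luc male against luc was 5 with no filter and 5 with array weights. The count for lucOS male against lucOS was 3 under quantile normalization and 10 without microRNA genes, and that for lucOS male against luc male was 0 in a fit of these 2 groups alone. For lucOS against luc, Timp1 was 0.040 with array weights, and within the AL51 series of animal numbers Timp1 was 0.12, Mmp15 -0.13 and Mmp17 -0.45.

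Leaving out 1 library at a time gave counts of 0 (without luc male replicate 3, among others) to 3 (without luc male replicate 4) for lucOS male against luc male. The counts were 1 (without luc male replicate 3) to 5 (without luc male replicate 4) for luc male against luc, and 2 (without lucOS male replicate 4) to 9 (without lucOS male replicate 3) for lucOS male against lucOS. Without 1 library Timp1 ranged from -0.21 to 0.055 for lucOS against luc, positive without luc replicate 6. Timp4 ranged from -0.56 to 0.18 for luc male against luc, positive without luc male replicate 3. Timp2 ranged from -0.29 to 0.0023 for lucOS male against luc male, positive without lucOS male replicate 1. The causes were not tested. TPM gives no depth, so precision at low levels could not be set.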
